A study of Mus musculus with 24 samples.

Results

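Chemokine receptors are cell-surface proteins that steer leukocytes along gradients of secreted ligands, and 8 of their genes were followed here through sorted cells of mouse fat: Ccr1, Ccr2, Ccr3, Ccr7, Ccr9, Cxcr4, Cx3cr1 and Xcr1. They were chosen by name as receptors known on myeloid cells, after earlier results of these data had been seen, and each was read from the only probe row of the array that carried its symbol alone. They are 8 of 22180 genes so named, and all 8 were among the 15496 that were tested (above the array's own median value on at least 2 of 24 arrays). Ccr3 reached that mark on only 3 arrays, all of macrophages from mice on the high-fat diet, and Ccr9 on 8.

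Male C57Bl/6 mice supplied gonadal fat, from which live stromal cells were sorted into adipose tissue dendritic cells (ATDC), adipose tissue macrophages (ATM) with or without the integrin CD11c, and the fat-cell precursors called preadipocytes (PA). The diets were weight loss (WL, in which a high-fat diet was eaten for 12 weeks and then withdrawn for 8 weeks), a high-fat diet (HFD, 60% fat, of a length that the labels leave out for the HFD groups) and a normal diet (ND). The 9 groups were HFD ATDC (3 arrays), ND ATDC (2), WL CD11c+ ATM (3), HFD CD11c+ ATM (3), WL CD11c- ATM (2), HFD CD11c- ATM (3), ND CD11c- ATM (2), HFD PA (3) and ND PA (3). The mice carried no named allele, and no label states an age. Each ND sample of ATM or ATDC pooled the cells of 4 mice, and the HFD samples and all PA samples pooled 3 to 4 mice each. No label says how many mice a WL sample came from, and CD11c+ ATM of ND mice were too scarce to be purified. CD11c is the only gating marker that the labels name.

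Most chemokine receptors of this family couple to inhibitory G proteins, and binding of a ligand starts directed movement before arrestins and receptor internalisation end the signal. Ccr2 is known for the exit of monocytes from bone marrow and their entry into obese fat, Ccr7 for the migration of dendritic cells to lymph nodes, and Xcr1 as the receptor that marks cross-presenting conventional dendritic cells (cDC1). Ccr1 serves inflammatory recruitment, Cxcr4 retention in bone marrow and other tissues, Cx3cr1 monocyte and resident macrophage survival and adhesion, Ccr3 eosinophil recruitment to fat and mucosa, and Ccr9 homing to the gut.

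The values are the deposited log2 expression values, and all differences are log2 differences with the standard error (SE) of a limma fit over the 24 arrays and p-values adjusted by the Benjamini-Hochberg method over 15496 genes (threshold 0.05). Arrays of 1 group correlated with r from 0.878 to 0.982 across genes. The array medians lay between 2.96 and 3.15, and a value at or below its array's median is taken only as low. The array values of different receptors come from different probes, so levels are compared between groups and not between receptors. In these sorted pools, fewer cells of a type and less RNA per cell cannot be told apart.

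Marker lists set the sorts apart with overlap. The median log2 value of 11 macrophage markers lay at 7.47 to 9.30 on the ATDC arrays, 9.43 to 10.70 on the ATM arrays and 4.04 to 8.08 on the PA arrays. The median of 6 markers shared by conventional dendritic cells lay at 7.56 to 8.04 on the ATDC arrays and 4.02 to 5.35 on the ATM arrays. Itgax, which encodes CD11c, read 7.70 to 9.19 on the CD11c+ ATM arrays, and among CD11c- ATM it read 5.94 and 7.10 after WL, 4.93 to 7.07 on the HFD and 3.01 and 2.76 on the ND. A pair of arrays was picked as standing apart within their groups, each by 1 marker list, although other lists also set them apart. HFD ATDC replicate 1 had a median of 7.12 over 8 natural killer (NK) cell markers, against 4.80 and 5.02 on the other HFD ATDC arrays, and HFD CD11c- ATM replicate 3 had a median of 8.07 over 10 preadipocyte and fibroblast markers, against 6.38 and 6.29. HFD ATDC replicate 1 also differed by mast cell markers (5.86, against 2.27 and 2.91) and macrophage markers (7.47, against 9.30 and 8.70). Its NK median was close to those of ND ATDC, 7.16 and 7.34. HFD CD11c- ATM replicate 3 also had the highest median of its group for migratory dendritic cell markers (5.17, against 4.22 and 4.17). The mean correlations of the pair with their own groups were 0.936 (others 0.951 and 0.948) and 0.955 (others 0.958 and 0.951). Other arrays stood apart by other lists, such as HFD CD11c- ATM replicate 1 by mast cell markers (7.23, against 2.29 and 4.85). Leaving out the pair is therefore 1 choice among several. For most receptor differences that use either array, the value without the pair is also given. All 8 receptors differed among the 9 groups (limma F test, adjusted p from 5.5e-08 for Xcr1 to 0.031 for Ccr9), as did 42.7% of all genes tested. Ccr3, 1 of the 8, had to differ to be tested, so its F test is not read as support.

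**Figure D1:**
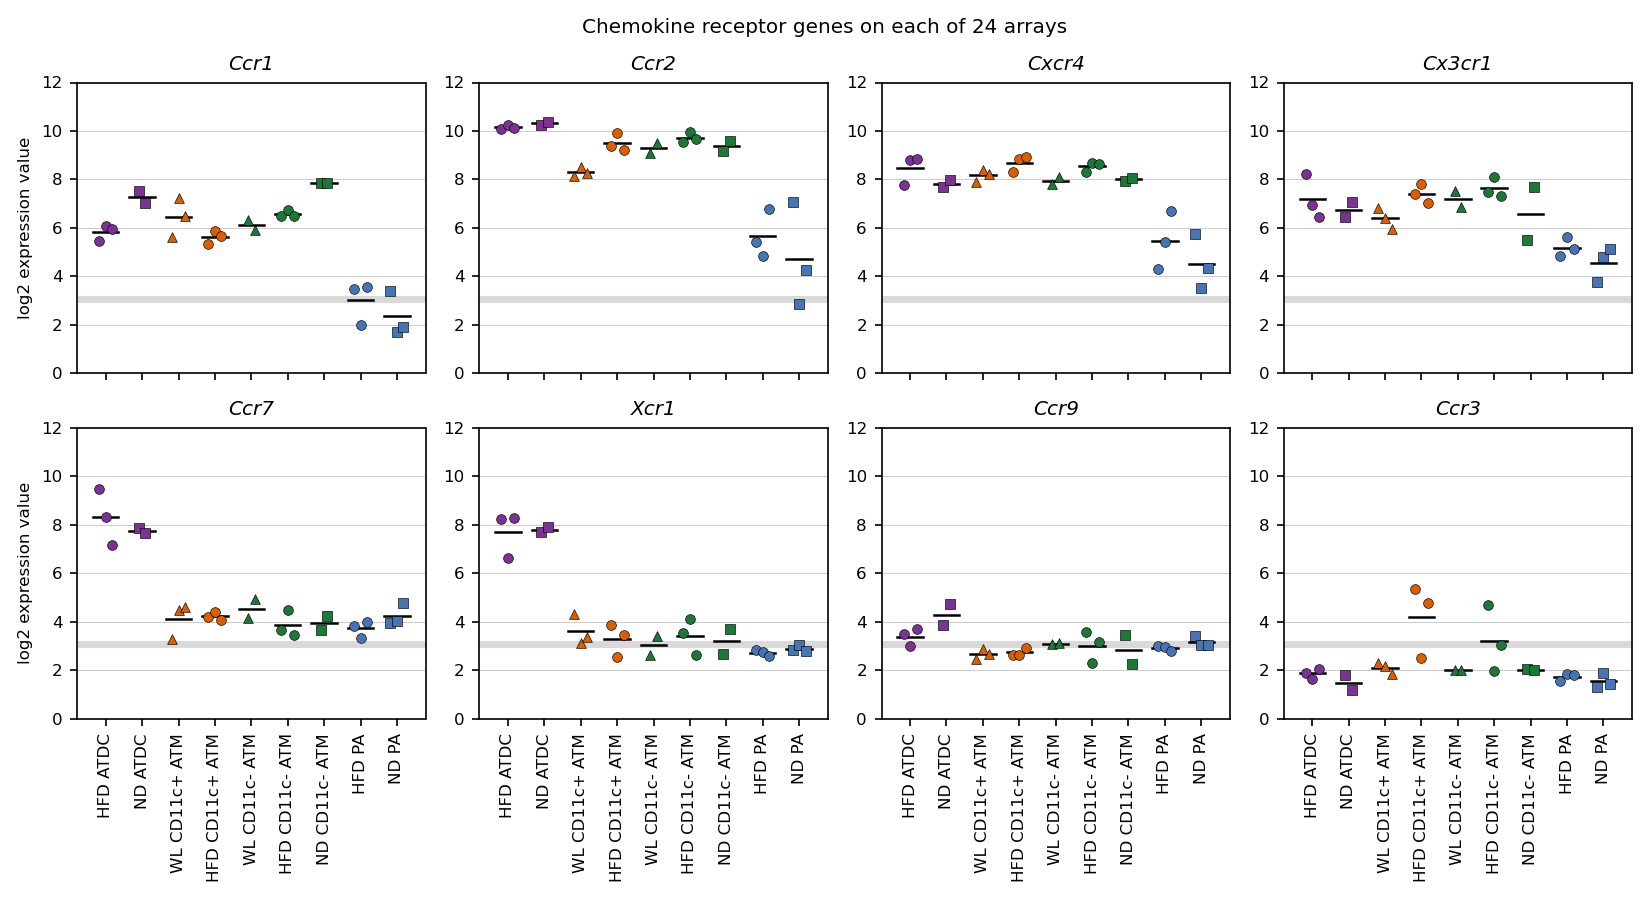
Log2 expression value of each receptor gene (vertical axis) on each of 24 arrays, by group (horizontal axis), with triangles for WL, circles for HFD and squares for ND. Bars are group means and the grey band spans the 24 array medians. Ccr7 and Xcr1 lie above all other groups on the 5 ATDC arrays, Ccr1, Ccr2 and Cxcr4 are lower on all 6 PA arrays than on all others, and Ccr3 leaves the low range on a few HFD macrophage arrays.

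The receptors fell into 3 patterns. Ccr7 and Xcr1 had higher values on each of the 5 ATDC arrays than on any ATM or PA array. Ccr1, Ccr2 and Cxcr4 had higher values on each ATDC and ATM array than on any PA array, and for Cx3cr1 the ATDC arrays were above the PA arrays and the ATM arrays (from 5.48) overlapped with them (up to 5.62). Ccr7, while lower there, was above the array median on all 13 ATM and 6 PA arrays. Ccr3 and Ccr9 were near or below the array medians in most groups. Of the 8 receptors, Ccr7 and Xcr1 passed the test in HFD ATDC against HFD CD11c+ ATM (4.16% of all genes did), and so did Ccr3, which had to differ to be tested and is described apart. Receptors past the test numbered 2 in HFD ATDC against HFD CD11c- ATM (6.2% of all genes) and 3 in ND ATDC against ND CD11c- ATM (8.27% of all genes). The first and second of these comparisons share the HFD ATDC arrays. In ND CD11c- ATM against ND PA 4 passed, where 23.4% of all genes did. The arrays of 5 receptors did not overlap in HFD ATDC against HFD CD11c+ ATM (25.4% of all genes), of 4 in HFD ATDC against HFD CD11c- ATM (22.1%), of 6 in ND ATDC against ND CD11c- ATM (49.2%) and of 5 in ND CD11c- ATM against ND PA (50.5%). Ccr3 is counted in each of these except HFD ATDC against HFD CD11c- ATM and is not read as support. On the ND its values, 1.16 to 2.05, were all below the array medians.

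Xcr1 encodes the receptor for Xcl1 and is, in mouse and human, a marker of cDC1. It read 8.24, 6.61 and 8.26 in HFD ATDC and 7.69 and 7.90 in ND ATDC. It read 3.86, 2.54 and 3.44 in HFD CD11c+ ATM, 3.53, 4.12 and 2.62 in HFD CD11c- ATM and 2.68 and 3.68 in ND CD11c- ATM. Every ATDC array stood above every macrophage array, of which 9 of 13 were above their own median, and HFD ATDC replicate 2 was the lowest of the 5. Xcr1 was higher by 4.43 ± 0.46 in HFD ATDC than in HFD CD11c+ ATM (21.6-fold, adjusted p = 6.4e-06), by 4.28 ± 0.46 than in HFD CD11c- ATM (19.4-fold, adjusted p = 5.9e-06), and by 4.61 ± 0.56 in ND ATDC than in ND CD11c- ATM (24.4-fold, adjusted p = 2e-05). Without the pair of arrays that stood apart, the HFD differences were 4.16 (adjusted p = 8.8e-05) and 3.61 (adjusted p = 0.00065). In WL macrophages Xcr1 was below every ATDC array, at 4.32, 3.10 and 3.36 in WL CD11c+ ATM and 2.64 and 3.42 in WL CD11c- ATM. No PA array, at 2.57 to 3.02, was above its own median.

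The stretch before the start of Xcr1 is shown because this receptor is one of the pair that passed the test in every comparison of dendritic cells with macrophages. It is the 250 bases upstream, 5′ to 3′, from the RefSeq promoter table of build GRCm38.p6, with capitals on a match to the ETS core letters GGAAGT, which begins 55 bases before the start. Windows reaching 50 bases past the start, 300 bases in all, were searched on both strands, and 23.8% of 32851 mouse promoters hold these letters.
Xcr1, chr9:123862030-123862279, minus strand: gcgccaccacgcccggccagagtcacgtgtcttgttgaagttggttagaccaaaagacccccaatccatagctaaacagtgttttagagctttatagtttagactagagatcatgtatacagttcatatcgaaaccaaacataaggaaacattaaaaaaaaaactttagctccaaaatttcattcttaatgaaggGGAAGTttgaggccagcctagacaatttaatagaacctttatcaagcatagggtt

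Ccr7, the receptor for Ccl19 and Ccl21 that takes migrating dendritic cells into lymphatics, read 9.47, 8.31 and 7.17 in HFD ATDC and 7.88 and 7.64 in ND ATDC. It read 4.19, 4.38 and 4.08 in HFD CD11c+ ATM, 3.64, 4.49 and 3.44 in HFD CD11c- ATM and 3.67 and 4.25 in ND CD11c- ATM. The ATDC and macrophage arrays did not overlap, and the HFD ATDC arrays spanned a wider range than the ND ATDC arrays. Ccr7 was higher by 4.10 ± 0.46 in HFD ATDC than in HFD CD11c+ ATM (17.1-fold, adjusted p = 1.5e-05) and by 4.46 ± 0.46 than in HFD CD11c- ATM (22-fold, adjusted p = 3.6e-06). In ND ATDC it was higher by 3.80 ± 0.56 than in ND CD11c- ATM (13.9-fold, adjusted p = 0.00016). Without the pair of arrays that stood apart the HFD differences were 3.53 (adjusted p = 0.00014) and 3.68 (adjusted p = 0.00021). WL macrophages, at 3.27, 4.50 and 4.59 (CD11c+) and 4.13 and 4.92 (CD11c-), and PA, at 3.34 to 4.75, overlapped with the other macrophages and lay below every ATDC array.

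The correlation of Ccr7 with Xcr1 was 0.91 over 24 arrays, which share the difference between sorts, and 0.02 after each group's mean was removed. Both values cover all sorts, and none was computed over the 5 ATDC arrays alone. Among these 5, HFD ATDC replicate 1 had the highest Ccr7 and replicate 2 the lowest Xcr1. Replicate 3 had the lowest Ccr7 (7.17) and the highest Xcr1 (8.26). The 8 markers of migratory dendritic cells had medians of 7.08, 5.70 and 6.15 on HFD ATDC replicates 1 to 3 and 6.00 and 5.92 in ND ATDC, with 8 of 8 above the array median on each of these arrays. The 9 markers of cDC1 had medians of 9.12, 8.54 and 8.98 in HFD ATDC and 8.72 and 8.79 in ND ATDC, with 9 of 9 above the median. On the ATM arrays the cDC1 medians were 6.06 to 7.82, with 7 to 8 of 9 above the array median. The migratory medians there were 4.17 to 5.37, with 5 to 8 of 8 above it. HFD ATDC replicate 2, with the lowest Xcr1 and the lowest cDC1 median of the 5 ATDC arrays, also had the highest macrophage median of these, 9.30, against 7.47 and 8.70 on HFD ATDC replicates 1 and 3 and 8.38 and 8.62 in ND ATDC. NK markers were also high on HFD ATDC replicate 1 (7.12) and both ND ATDC arrays (7.16 and 7.34). On HFD ATDC replicates 2 and 3 they were 4.80 and 5.02, within the range of the ATM arrays, 3.36 to 5.18. The 7 T cell markers had medians of 4.36 to 5.43 on the ATDC arrays, against 3.08 to 4.29 on the ATM arrays. The 6 B cell markers had medians of 3.37 to 4.94 on the ATDC arrays and 3.15 to 5.26 on the ATM arrays. The part of these lists in the receptor values was not tested.

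**Figure D2:**
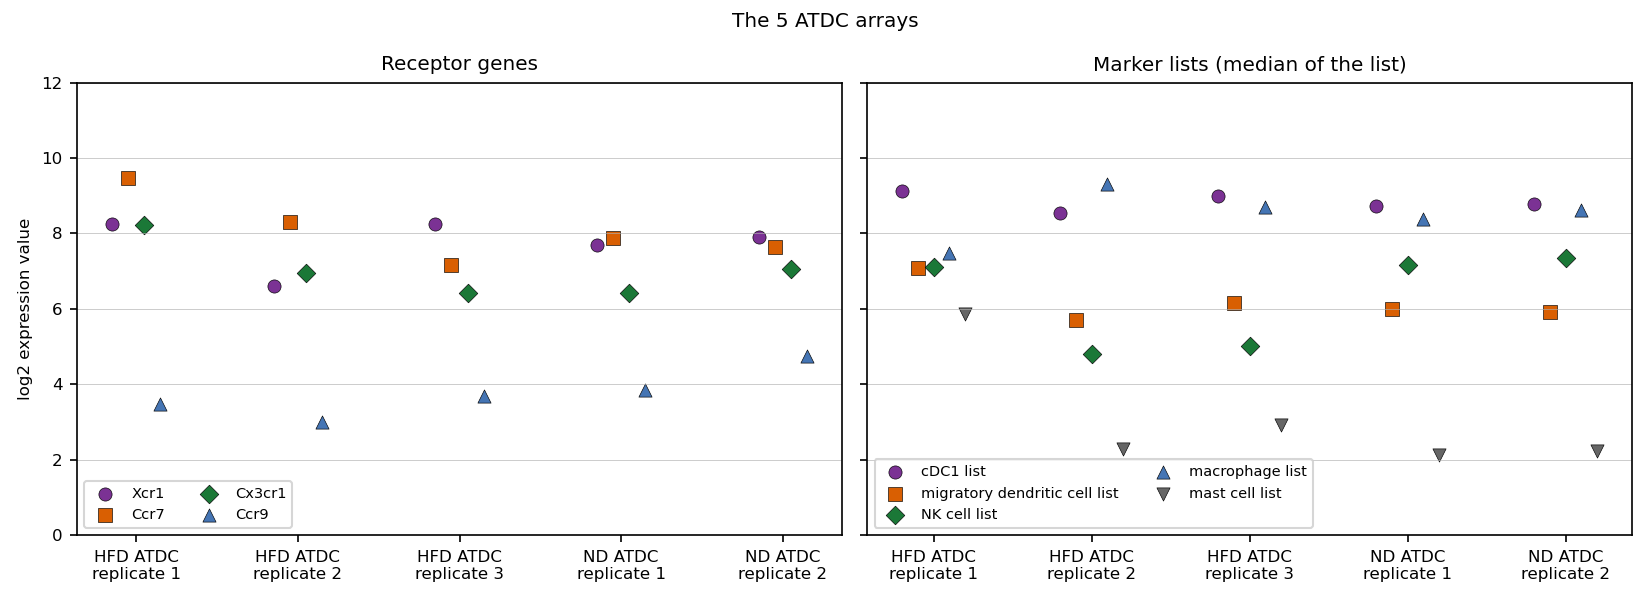
Log2 expression value (vertical axis) on the 5 ATDC arrays (horizontal axis) for 4 receptor genes (left) and for the median of 5 marker lists (right). Xcr1 and the macrophage list lie at opposite ends on HFD ATDC replicate 2, and Ccr7 and the migratory list are highest on HFD ATDC replicate 1.

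Ccr9 is known for drawing lymphocytes and plasmacytoid dendritic cells to its ligand Ccl25. It read 3.47, 3.00 and 3.68 in HFD ATDC and 3.84 and 4.74 in ND ATDC, against 3.44 and 2.25 in ND CD11c- ATM. On the other macrophage arrays it lay between 2.30 and 3.56 and on PA arrays between 2.78 and 3.39. The ND ATDC arrays were the 2 highest of the 24, and all other groups overlapped with at least 1 neighbour. Ccr9 was higher by 1.45 ± 0.39 in ND ATDC than in ND CD11c- ATM (adjusted p = 0.025), where 1 of 2 ND CD11c- ATM arrays was above its median, a call that was lost without ND CD11c- ATM replicate 2 (0.85, adjusted p = 0.35) or ND ATDC replicate 2 (1.00, adjusted p = 0.26). The difference between HFD ATDC and HFD CD11c+ ATM was 0.65 ± 0.32 (adjusted p = 0.34), and 0.61 without the pair of arrays that stood apart. The 8 plasmacytoid dendritic cell markers had medians of 5.85 to 5.99 in ND ATDC, with 7 of 8 above the array median, and 6.75 to 7.31 in ND CD11c- ATM, with 6 of 8.

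Ccr3, the eotaxin receptor of eosinophils, was low on nearly all arrays. It read 1.89, 1.63 and 2.06 in HFD ATDC, against 5.34, 2.49 and 4.76 in HFD CD11c+ ATM and 4.68, 1.96 and 3.02 in HFD CD11c- ATM. The WL macrophages, at 2.28, 2.15 and 1.83 (CD11c+) and 2.00 and 2.01 (CD11c-), the ND CD11c- ATM, at 2.05 and 1.99, and the ND ATDC, at 1.79 and 1.16, were below the array medians, as were the 6 PA arrays, at 1.30 to 1.90. The raised values were those of HFD CD11c+ ATM replicates 1 and 3 and HFD CD11c- ATM replicate 1, and both groups also held arrays in the low range. Ccr3 was lower by 2.34 ± 0.57 in HFD ATDC than in HFD CD11c+ ATM (log2 difference -2.34, adjusted p = 0.022), or at least 1.11 lower on the log2 scale when values below the array median are set to it. This call was lost without HFD CD11c+ ATM replicate 1 (-1.76, adjusted p = 0.16) or replicate 3 (-2.05, adjusted p = 0.13), without HFD ATDC replicate 1 (-2.35, adjusted p = 0.084) or replicate 2 (-2.22, adjusted p = 0.054), and without the pair of arrays that stood apart (-2.35, adjusted p = 0.10). Since Ccr3 entered the test only through HFD macrophages, its call is not counted as support for any group difference.

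Eosinophils and mast cells are known carriers of Ccr3. The 5 eosinophil markers on the array had medians of 2.83, 2.46 and 2.65 in HFD CD11c+ ATM replicates 1 to 3 and 2.30, 2.65 and 2.57 in HFD CD11c- ATM, with 1 or 2 of the 5 above the array median on each. The 7 mast cell markers had medians of 5.58, 2.23 and 2.69 in HFD CD11c+ ATM and 7.23, 2.29 and 4.85 in HFD CD11c- ATM. In both sorts replicate 1 was the highest for this list and for Ccr3. The list was higher in WL CD11c- ATM, at 9.23 to 9.32, and in WL CD11c+ ATM, at 5.82 to 7.06, where Ccr3 was 2.28 at most. Itgax read 8.89, 7.70 and 9 in HFD CD11c+ ATM and 6.40, 4.93 and 7.07 in HFD CD11c- ATM, so that replicate 2 was lowest for Ccr3 and Itgax in both sorts. The part of other cell types in the Ccr3 values was not tested.

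The other receptors, Ccr1, Ccr2, Cxcr4 and Cx3cr1, were above the array median on all ATDC and ATM arrays. Of these sorts, only ND CD11c- ATM was tested against PA. Ccr2, the receptor for Ccl2, Ccl7 and Ccl12, read 10.10, 10.26 and 10.13 in HFD ATDC and 10.26 and 10.39 in ND ATDC. It read 9.38, 9.93 and 9.20 in HFD CD11c+ ATM, 9.55, 9.96 and 9.68 in HFD CD11c- ATM and 9.18 and 9.57 in ND CD11c- ATM. The 5 ATDC arrays were above all macrophage arrays, but the differences were small against their error, at 0.66 ± 0.65 for HFD ATDC against HFD CD11c+ ATM (adjusted p = 0.72), 0.43 ± 0.65 against HFD CD11c- ATM (adjusted p = 0.84) and 0.95 ± 0.80 for ND ATDC against ND CD11c- ATM (adjusted p = 0.60). Without the pair of arrays that stood apart the HFD differences were 0.69 and 0.44. In ND PA, Ccr2 read 7.05, 2.87 and 4.27, so it was higher by 4.64 ± 0.73 in ND CD11c- ATM than in ND PA (24.9-fold, adjusted p = 5.8e-05). The fit uses 1 spread per gene for all groups, and for Ccr2 the scatter of PA (SD 2.13 in ND PA, against 0.09 in both ATDC groups) enters the error of every comparison.

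Ccr1, which binds Ccl3, Ccl5 and related ligands, read 7.87 and 7.87 in ND CD11c- ATM and 3.39, 1.71 and 1.93 in ND PA. It was higher by 5.53 ± 0.50 in ND CD11c- ATM than in ND PA (adjusted p = 1.3e-07), with 1 of 3 ND PA arrays above its median. Cxcr4, the receptor for Cxcl12, read 7.94 and 8.06 in ND CD11c- ATM and 5.74, 3.50 and 4.35 in ND PA, a difference of 3.47 ± 0.56 (11.1-fold, adjusted p = 7.7e-05). The ND CD11c- ATM and ND PA arrays did not overlap for either gene, and both calls held with any of the 5 arrays left out. Cx3cr1, the fractalkine receptor, read 5.48 and 7.69 in ND CD11c- ATM and 3.78, 4.81 and 5.12 in ND PA. It was higher by 2.01 ± 0.57 (4.03-fold, adjusted p = 0.012), a call that was lost without ND CD11c- ATM replicate 2 (0.90, adjusted p = 0.37) or ND PA replicate 1 (1.62, adjusted p = 0.063). Among the 3 ND PA arrays, replicate 1 had the most Ccr2, Cxcr4 and Ccr1 and also the most macrophage marker signal (median 5.58, against 4.04 and 4.06). The part of macrophage RNA in the PA values was not tested.

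**Figure D3:**
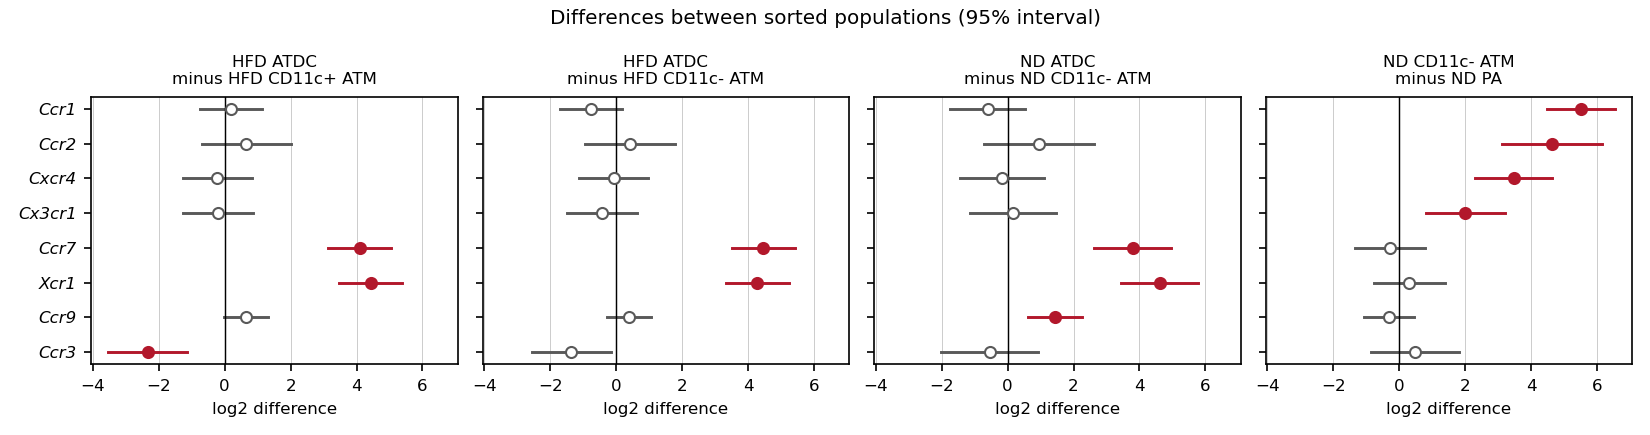
Log2 difference (horizontal axis) of each receptor gene between sorted populations on the same diet, with the 95% interval of the limma fit, filled red where the adjusted p was under 0.05. Ccr7 and Xcr1 lie between 3.80 and 4.61 in each comparison of ATDC with ATM, and Ccr1, Ccr2, Cxcr4 and Cx3cr1 are the genes that passed in ND CD11c- ATM against ND PA.

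The order of the group means showed where neighbours were apart. Ccr2 was highest in ND ATDC, at 10.32 ± 0.09 (SD, n = 2), and HFD ATDC, at 10.16 ± 0.09 (SD, n = 3), whose arrays did not overlap with the next group, HFD CD11c- ATM at 9.73 ± 0.21 (SD, n = 3). Its lowest myeloid group was WL CD11c+ ATM at 8.31 ± 0.18 (SD, n = 3), apart from the neighbours on both sides, and the groups between overlapped. Ccr1 was highest in ND CD11c- ATM and then in ND ATDC, at 7.26 ± 0.35 (SD, n = 2), each apart from the next group. HFD CD11c- ATM, both WL groups, HFD ATDC and HFD CD11c+ ATM followed at means of 6.58 to 5.63, each overlapping with its neighbour. Cxcr4 ran from 8.69 ± 0.33 (SD, n = 3) in HFD CD11c+ ATM down to 7.83 ± 0.21 (SD, n = 2) in ND ATDC with overlap at each step, and then to HFD PA at 5.47 ± 1.19 (SD, n = 3), apart. Cx3cr1 ran from 7.63 ± 0.40 (SD, n = 3) in HFD CD11c- ATM to 6.39 ± 0.42 (SD, n = 3) in WL CD11c+ ATM with overlap at each step, and HFD PA at 5.18 ± 0.41 (SD, n = 3) was apart. In ATDC, Cx3cr1 read 8.22, 6.96 and 6.43 on the HFD, against 6.43 and 7.05 on the ND, a difference of 0.46 ± 0.57 (adjusted p = 0.95) that was -0.05 without the pair of arrays that stood apart.

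The promoter-table sequences of Ccr1, Ccr2 and Cxcr4 are given because these receptors had like patterns over the arrays, which share the difference between PA and the other sorts. The correlation over 24 arrays was 0.93 for Ccr2 with Cxcr4, 0.88 for Ccr1 with Ccr2 and 0.85 for Ccr1 with Cxcr4, and 0.78, 0.72 and 0.53 after each group's mean was removed. For each of these genes the scatter within groups was largest in the PA groups, so PA arrays weigh heavily in the values after removal. The part of macrophage RNA in them was not tested. The sequences are the 250 bases before the start that the same RefSeq promoter table and build use. For Ccr2 that start lies inside the annotated gene, which begins at 124101918. The Ccr2 stretch shown is therefore within the gene and not before it. The letters GAGGAA (a PU.1 purine box) were found 129 bases before the start of Ccr1, in capitals, and in 28.3% of all promoters. None of the 5 motifs searched on both strands (the ETS core, the PU.1 purine box, the AP-1 site, the ETS-IRF composite element and the IRF repeat) was found in the windows of Ccr2 and Cxcr4.
Ccr1, chr9:123968693-123968942, minus strand: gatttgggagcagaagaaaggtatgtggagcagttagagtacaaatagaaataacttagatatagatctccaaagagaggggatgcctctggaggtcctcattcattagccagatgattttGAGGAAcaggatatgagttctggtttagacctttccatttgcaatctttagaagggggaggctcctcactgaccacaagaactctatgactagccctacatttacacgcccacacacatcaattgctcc
Ccr2, chr9:124101933-124102182, plus strand: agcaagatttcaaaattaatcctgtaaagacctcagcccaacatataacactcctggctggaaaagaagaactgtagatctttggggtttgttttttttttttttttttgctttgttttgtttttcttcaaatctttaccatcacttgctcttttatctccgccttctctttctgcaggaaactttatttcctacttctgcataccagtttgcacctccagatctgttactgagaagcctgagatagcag
Cxcr4, chr1:128592300-128592549, minus strand: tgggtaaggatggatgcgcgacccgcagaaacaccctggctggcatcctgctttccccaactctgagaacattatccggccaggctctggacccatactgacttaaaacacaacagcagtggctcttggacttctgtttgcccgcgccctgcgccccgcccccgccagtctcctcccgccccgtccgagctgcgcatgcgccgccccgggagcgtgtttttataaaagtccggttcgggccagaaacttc

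Promoters were matched for 7 of 8 receptors, all but Ccr7. The window of Ccr3 held the ETS core, the PU.1 purine box and the AP-1 letters TGANTCA, which 7.81% of promoters hold, and those of Ccr9 and Cx3cr1 held none of the 5 motifs. Like that of Ccr2, the Ccr3 window, from 124021721, lies inside the annotated gene, which begins at 124017825. The ETS-IRF composite element (in 2.72% of promoters) and the IRF repeat (in 3.44%) were in none of the 7 windows. By the GRCm38.p6 annotation, 6 of 8 lie on chromosome 9, in the order Cx3cr1, Ccr9, Xcr1, Ccr1, Ccr3 and Ccr2. Xcr1 and Ccr1 have no other coding gene between them, nor do Ccr3 and Ccr2, yet neighbours differed in pattern: Xcr1 was high on ATDC arrays and Ccr1 on both ATDC and ATM arrays. The gene between Ccr1 and Ccr3 is Ccr1l1, a close relative of Ccr1, and probe sequences were not used, so signal shared by the pair could not be separated.

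The effect of diet was asked in 3 sorts, and none of the 8 receptors passed the limma test in any of them. All genes passing made up 0.258% in HFD against ND ATDC, 0.613% in HFD against ND CD11c- ATM and 2.59% in HFD against ND PA. At an unadjusted p under 0.05, 2 receptors passed in ATDC (Ccr1 and Ccr9), 1 in CD11c- ATM (Ccr1) and 0 in PA. Of all 15496 genes, 1335, 1332 and 1804 passed at that level in the same order. The arrays of 2 receptors did not overlap in ATDC (22.1% of all genes), of 2 in CD11c- ATM (27.1% of all genes) and of 1 in PA (19.8% of all genes).

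Ccr1 had the most negative difference of the 8 receptors in both immune sorts. It read 5.44, 6.08 and 5.94 in HFD ATDC, against 7.51 and 7.01 in ND ATDC, and 6.51, 6.73 and 6.50 in HFD CD11c- ATM, against 7.87 in both ND CD11c- ATM arrays. All HFD arrays were below the ND arrays of the same sort. The differences were -1.44 ± 0.50 in ATDC (95% interval -2.48 to -0.40, adjusted p = 0.33) and -1.29 ± 0.50 in CD11c- ATM (-2.33 to -0.25, adjusted p = 0.39), and -1.25 for both without the pair of arrays that stood apart. The interaction of diet with sort was -0.15 ± 0.70 for Ccr1 (adjusted p = 1.0, and 0.00 without the pair), and none of the 8 receptors passed it by limma (0 at an unadjusted p under 0.05), where 0.0581% of all genes did. Of all 15496 genes, 1123 had an unadjusted p under 0.05 for this interaction.

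The difference of Ccr2, whose known role on a high-fat diet is monocyte entry into fat, was within its error in both immune sorts. It was -0.16 ± 0.73 in HFD against ND ATDC (95% interval -1.68 to 1.36) and 0.36 ± 0.73 in HFD against ND CD11c- ATM (-1.16 to 1.88), intervals that hold log2 changes of more than 1 in either direction. Without the pair of arrays that stood apart these were -0.13 and 0.38. Cxcr4 read 7.76, 8.80 and 8.83 in HFD ATDC, against 7.68 and 7.98 in ND ATDC, and 8.31, 8.67 and 8.63 in HFD CD11c- ATM, against 7.94 and 8.06 in ND CD11c- ATM. The CD11c- ATM arrays did not overlap for Cxcr4, at a difference of 0.54 ± 0.56 (adjusted p = 0.91, and 0.50 without the pair). Cx3cr1 read 7.47, 8.09 and 7.33 in HFD CD11c- ATM, against 5.48 and 7.69 in ND CD11c- ATM, a difference of 1.04 ± 0.57 (adjusted p = 0.67, and 1.19 without the pair) with overlap. Its direction rested on 1 array, since it was -0.06 without ND CD11c- ATM replicate 1. Ccr7 and Xcr1 in ATDC differed by 0.56 ± 0.51 and -0.09 ± 0.51 (adjusted p = 0.90 and 1.0), and by -0.02 and -0.36 without the pair of arrays that stood apart.

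In PA the receptors of leukocytes varied from array to array. Ccr2 read 5.41, 4.83 and 6.79 in HFD PA, against 7.05, 2.87 and 4.27 in ND PA, a difference of 0.94 ± 0.65 (adjusted p = 0.70) that was 2.10 (adjusted p = 0.0086) without ND PA replicate 1. Cxcr4 read 4.32, 5.40 and 6.69 in HFD PA, against 5.74, 3.50 and 4.35 in ND PA, a difference of 0.94 ± 0.50 (adjusted p = 0.51). The groups overlapped for both. Macrophage markers had medians of 6.26, 5.67 and 8.08 on the HFD PA arrays and 5.58, 4.04 and 4.06 on the ND PA arrays, and HFD PA replicate 3 and ND PA replicate 1 were the highest of their groups for Ccr2, Cxcr4 and these markers. Their part in the PA values was not tested.

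Weight loss was compared with the HFD in both macrophage sorts and with the ND in CD11c- ATM, and no receptor passed by limma. All genes passing made up 1.33% in WL against HFD CD11c+ ATM, 2.96% in WL against HFD CD11c- ATM and 6.18% in WL against ND CD11c- ATM. At an unadjusted p under 0.05, 1 receptor (Ccr3) passed in WL against HFD CD11c+ ATM, 0 in WL against HFD CD11c- ATM and 1 (Ccr1) in WL against ND CD11c- ATM. Of all 15496 genes, 3113, 2739 and 3037 passed at that level in the same order. The arrays of 3 receptors did not overlap in WL against HFD CD11c+ ATM (26.1% of all genes), of 3 in WL against HFD CD11c- ATM (33%) and of 1 in WL against ND CD11c- ATM (48%). Ccr3 is among the 3 in CD11c+ ATM and is not read as support.

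In CD11c+ ATM, Ccr2 read 8.16, 8.50 and 8.26 after WL, against 9.38, 9.93 and 9.20 on the HFD. The WL arrays were all below the HFD arrays, by -1.20 ± 0.65 (95% interval -2.56 to 0.16, adjusted p = 0.31). Cx3cr1 read 6.81, 6.39 and 5.97 after WL, against 7.40, 7.83 and 7.02 on the HFD, a difference of -1.02 ± 0.51 (adjusted p = 0.27), again without overlap. Ccr3 differed by -2.11 ± 0.57 (adjusted p = 0.068), at least 1.13 lower on the log2 scale with low values set at the array median, and by -2.97 (adjusted p = 0.031) without HFD CD11c+ ATM replicate 2. These p-values are not read as support, since Ccr3 was tested only through its HFD macrophage arrays. Ccr1 read 5.64, 7.23 and 6.51 after WL, against 5.35, 5.88 and 5.66 on the HFD, with overlap and a difference of 0.83 ± 0.44 (adjusted p = 0.30). The WL CD11c+ ATM arrays were the least alike of any group, with mean correlations to their own group of 0.881, 0.913 and 0.917. Their macrophage marker medians were 9.43 to 10.04, against 10.1 to 10.29 in HFD CD11c+ ATM. Mast cell medians were 5.82 to 7.06, against 2.23 to 5.58, and preadipocyte and fibroblast medians 6.79 to 7.19, against 4.98 to 6.08. The part of these in the receptor values was not tested.

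In CD11c- ATM, Ccr1 read 6.31 and 5.91 after WL, against 6.51, 6.73 and 6.50 on the HFD and 7.87 on both ND arrays. The WL arrays were the lowest of the 3 diets, with differences of -0.47 ± 0.50 from the HFD (adjusted p = 0.68, and -0.51 without the pair of arrays that stood apart) and -1.76 ± 0.54 from the ND (95% interval -2.90 to -0.62, adjusted p = 0.061). Ccr2 read 9.11 and 9.50 after WL, against 9.55, 9.96 and 9.68 on the HFD and 9.18 and 9.57 on the ND. Its WL and ND arrays overlapped, with a difference of -0.07 ± 0.80 (-1.73 to 1.60). Cxcr4 read 7.82 and 8.09 after WL, against 8.31, 8.67 and 8.63 on the HFD, without overlap (-0.59 ± 0.56, adjusted p = 0.64, and -0.54 without the pair), and differed from the ND by -0.04 ± 0.61. Cx3cr1 read 7.54 and 6.88 after WL and differed by -0.42 ± 0.57 from the HFD (-0.57 without the pair) and 0.63 ± 0.62 from the ND, which was -0.48 without ND CD11c- ATM replicate 1. The interaction of weight loss with the CD11c sort was passed by no receptor in limma (0 at an unadjusted p under 0.05), where 0.161% of all genes passed, and for Ccr1 it was 1.30 ± 0.67 (adjusted p = 0.74). Of all 15496 genes, 1044 had an unadjusted p under 0.05 for this interaction.

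For the CD11c sort, no receptor passed by limma in HFD CD11c+ against HFD CD11c- ATM (0.00645% of all genes did, and 1 receptor, Ccr1, at an unadjusted p under 0.05) or in WL CD11c+ against WL CD11c- ATM (1.34% of all genes, and 0 receptors unadjusted). Of all 15496 genes, 997 on the HFD and 2280 after WL had an unadjusted p under 0.05. Ccr1 read 5.35, 5.88 and 5.66 in HFD CD11c+ ATM, against 6.51, 6.73 and 6.50 in HFD CD11c- ATM, a difference of -0.95 ± 0.44 (adjusted p = 0.76, and -0.99 without the pair of arrays that stood apart) without overlap. It was the only receptor of the 8 without overlap there (17.7% of all genes). After WL the CD11c+ arrays were below the CD11c- arrays for Ccr2 (-1.0 ± 0.73, adjusted p = 0.56), Cx3cr1 (-0.82 ± 0.57, adjusted p = 0.53) and Ccr9 (-0.43 ± 0.36, adjusted p = 0.61), 3 of 8 receptors, where 24.3% of all genes did not overlap.

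**Figure D4:**
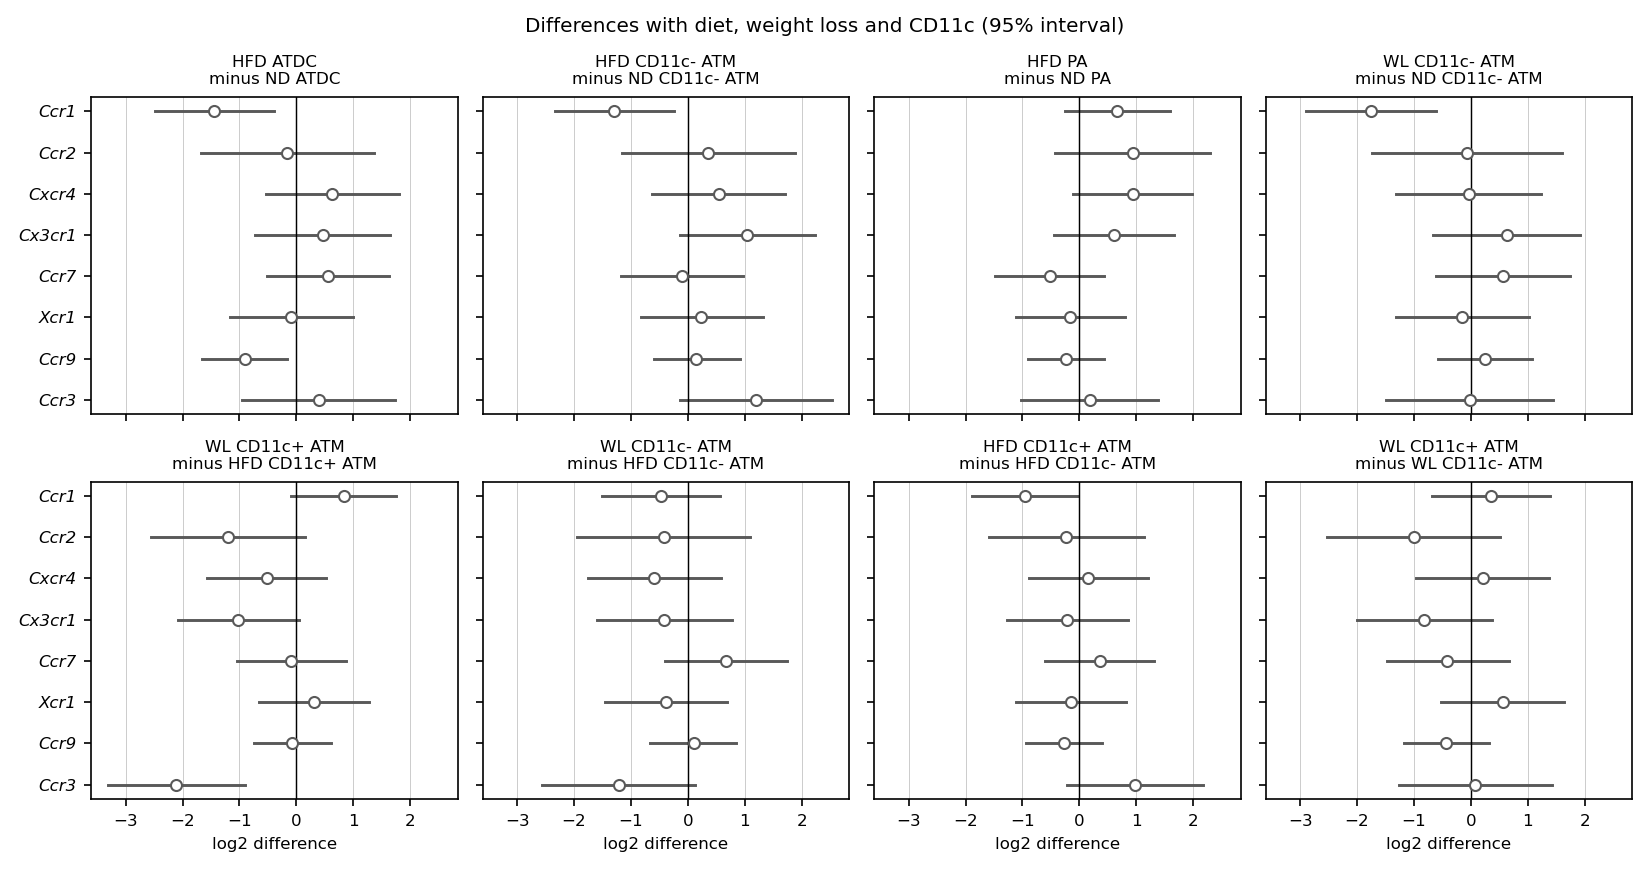
Log2 difference (horizontal axis) of each receptor gene with diet, weight loss and the CD11c sort, with the 95% interval of the limma fit. Open grey points mark differences with an adjusted p of 0.05 or more, which all of these are. The intervals of Ccr1 on the HFD in ATDC and CD11c- ATM, and of Ccr3 in WL against HFD CD11c+ ATM, are among those that lie below 0 before adjustment.

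Of 21 listed ligands of these receptors, 17 were on the array under 1 symbol and 16 were tested; Ccl19 and the Ccl21 genes, the ligands of Ccr7, were not analysed here. Xcl1, the ligand of Xcr1, read 10.63, 8.26 and 9.62 in HFD ATDC and 10.35 and 10.34 in ND ATDC, against 7.17, 5.73 and 5.72 in HFD CD11c+ ATM, 7.19, 7.27 and 5.75 in HFD CD11c- ATM and 4.76 and 6.69 in ND CD11c- ATM. WL CD11c- ATM, where Xcr1 read 2.64 and 3.42, read 9.29 and 9.11 for Xcl1, above HFD ATDC replicate 2. Xcl1 was higher by 4.62 ± 0.88 in ND ATDC than in ND CD11c- ATM (adjusted p = 0.0017), by 3.30 ± 0.71 in HFD ATDC than in HFD CD11c+ ATM (adjusted p = 0.0097) and by 2.77 ± 0.71 than in HFD CD11c- ATM (adjusted p = 0.023). Both HFD calls were lost without HFD ATDC replicate 1, with an adjusted p over the leave-outs of up to 0.084 and 0.14, and were 2.73 (adjusted p = 0.075) and 1.71 (adjusted p = 0.39) without the pair of arrays that stood apart. Xcl1 is a known product of NK cells, and NK markers were high on HFD ATDC replicate 1 and both ND ATDC arrays, as given above. On HFD ATDC replicates 2 and 3 they lay within the range of the ATM arrays. The part of NK cells in the Xcl1 values was not tested.

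Ccl12, a ligand of Ccr2, was lower in dendritic cells than in macrophages. It read 4.50, 5.11 and 2.27 in HFD ATDC, against 7.87, 8.57 and 6.25 in HFD CD11c+ ATM and 8.74, 8.86 and 8.45 in HFD CD11c- ATM, and it fell by 3.61 ± 0.75 (adjusted p = 0.0073) and 4.73 ± 0.75 (adjusted p = 0.00044) relative to these, and the differences were -3.88 and -5.12 without the pair of arrays that stood apart. In ND ATDC it read 1.79 and 3.00, against 9.25 and 9.62 in ND CD11c- ATM, at least 6.31 lower on the log2 scale (adjusted p = 4.6e-05). Ccl7, another ligand of Ccr2, passed only against HFD CD11c- ATM, where HFD ATDC fell by 3.29 ± 0.58 (adjusted p = 0.0011, difference -3.19 without the pair), while Ccl2 passed in none of the 12 comparisons. Cx3cl1, the ligand of Cx3cr1, ranged over the 24 arrays from 2.77 to 6.79 and Ccl25, the ligand of Ccr9, from 2.63 to 5.0, and neither passed in any comparison. Of 16 ligands, 1 was higher (1.72% of all genes) and 2 lower (2.44%) in HFD ATDC against HFD CD11c+ ATM. Against HFD CD11c- ATM, 1 was higher (2.54%) and 5 lower (3.66%), and in ND ATDC against ND CD11c- ATM, 2 were higher (3.67%) and 3 lower (4.6%). Without the pair of arrays that stood apart, Xcl1 and Ccl8 no longer passed against HFD CD11c+ ATM, nor Xcl1, Ccl11 and Cxcl12 against HFD CD11c- ATM. The median ligand difference was -0.11 (-0.05 for all genes), -0.47 (-0.02) and -0.51 (-0.01) in the same order.

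Weight loss, where no receptor passed, came with higher values of a few ligands. Ccl11, an eotaxin that binds Ccr3, read 9.16, 9.34 and 9.04 in WL CD11c+ ATM, against 6.65, 5.45 and 5.24 in HFD CD11c+ ATM, and rose by 3.40 ± 0.41 (adjusted p = 0.00063). It rose by 2.15 ± 0.45 in WL against HFD CD11c- ATM (adjusted p = 0.014) and by 2.63 ± 0.50 in WL against ND CD11c- ATM (adjusted p = 0.0035). The call against HFD CD11c- ATM held without the pair of arrays that stood apart (2.66) and was lost without HFD CD11c- ATM replicate 1 or 2 or WL CD11c- ATM replicate 1. Cxcl12, the ligand of Cxcr4, read 7.71, 7.75 and 7.01 in WL CD11c+ ATM, against 5.59, 5.38 and 4.81 in HFD CD11c+ ATM, and rose by 2.23 ± 0.37 (adjusted p = 0.0084), a call lost without HFD CD11c+ ATM replicate 3 (adjusted p = 0.064). Both ligands are also products of stromal cells: Ccl11 read 10.72 to 11.53 and Cxcl12 8.87 to 9.42 on the PA arrays. The 10 preadipocyte and fibroblast markers had medians of 6.79 to 7.19 in WL CD11c+ ATM, against 4.98 to 6.08 in HFD CD11c+ ATM, and 7.26 to 8.54 in WL CD11c- ATM, against 6.29 to 8.07 in HFD and 4.00 to 4.84 in ND CD11c- ATM. The part of stromal RNA in these rises was not tested.

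Ccl4 rose by 2.94 ± 0.40 in WL against ND CD11c- ATM (adjusted p = 0.00023) and by 1.47 ± 0.36 against HFD CD11c- ATM (adjusted p = 0.033). It encodes a chemokine known as a product of activated macrophages. Xcl1 rose by 3.47 ± 0.88 in WL against ND CD11c- ATM (adjusted p = 0.021), with arrays at 9.29 and 9.11 after WL, against 4.76 and 6.69 on the ND. The Xcl1 call held in 1 of 4 leave-outs, with an adjusted p of up to 0.23, and Ccl4 against HFD in 2 of 5, up to 0.26 (1.41, adjusted p = 0.067, without the pair of arrays that stood apart). NK markers had medians of 5.11 and 5.18 in WL CD11c- ATM, against 3.45 to 3.92 in HFD and 3.68 and 3.90 in ND CD11c- ATM. All 7 mast cell markers passed higher in WL against ND CD11c- ATM, and 5 against HFD CD11c- ATM. The 12 dissociation stress genes had medians of 9.78 and 9.86 in WL CD11c- ATM, against 8.79 to 9.07 in HFD and 9.10 and 9.09 in ND CD11c- ATM. The part of these in the Xcl1 and Ccl4 rises was not tested. Of 16 ligands, 2 were higher in WL against HFD CD11c+ ATM (0.632% of all genes), 2 in WL against HFD CD11c- ATM (1.17%) and 3 in WL against ND CD11c- ATM (3.23%), and none was lower (0.697%, 1.79% and 2.95% of all genes). The median ligand difference was 0.74 (-0.10 for all genes), 0.77 (-0.09) and 0.32 (-0.08) in the same order.

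**Figure D5:**
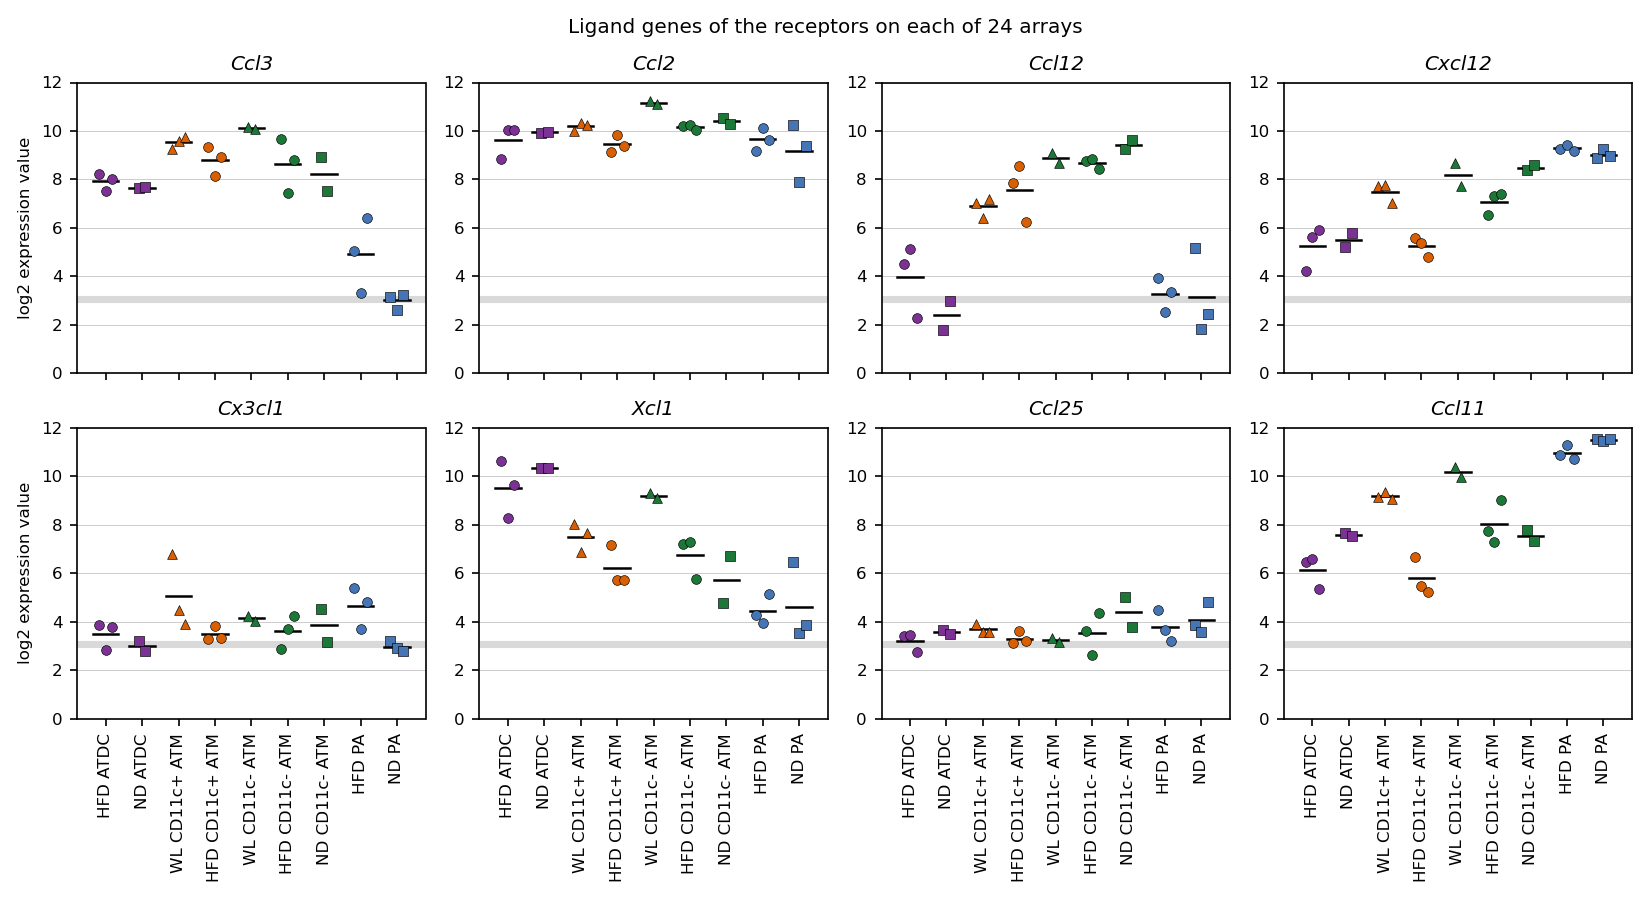
Log2 expression value (vertical axis) of 8 ligand genes on each of 24 arrays, by group (horizontal axis), with symbols, bars and band as for the receptors. Xcl1 is high on ATDC and WL CD11c- ATM arrays. Ccl12 is higher in HFD and ND ATM than in ATDC of the same diet, and higher in ND CD11c- ATM than in ND PA. Ccl11 and Cxcl12 are highest in PA and higher in WL than in HFD CD11c+ ATM.

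On the HFD, 3 of 16 ligands rose in PA (1.69% of all genes) and none fell (0.897%), with a median difference of 0.52, against -0.02 for all genes. Ccl8 read 8.43, 7.33 and 8.25 in HFD PA, against 6.24, 2.49 and 4.22 in ND PA, and rose by 3.69 ± 0.69 (adjusted p = 0.0047). Ccl9 and Ccl6, which bind Ccr1, rose by 2.86 ± 0.54 (adjusted p = 0.0055) and 2.00 ± 0.50 (adjusted p = 0.034), the second with overlap and held in 2 of 6 leave-outs. The macrophage markers given above were higher on the same HFD PA arrays. No ligand passed by limma in HFD against ND ATDC, HFD against ND CD11c- ATM, or CD11c+ against CD11c- ATM on either diet. In ND CD11c- ATM against ND PA, 8 ligands were higher (10.8% of all genes), among them Ccl24 by 7.05 ± 0.62 and Ccl3 by 5.20 ± 0.66 (adjusted p = 1.1e-07 and 5.2e-06). The 1 lower (12.6% of all genes) was Ccl11, at -3.96 ± 0.45 (adjusted p = 1.5e-06).

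Among 15 other listed chemokine receptors, 14 were on the array and 11 were tested. Cxcr3, the receptor for interferon-induced ligands, read 6.84, 6.97 and 7.53 in HFD ATDC and 7.20 and 7.31 in ND ATDC, against 5.86, 5.69 and 5.32 in HFD CD11c+ ATM. It was higher by 1.49 ± 0.24 in HFD ATDC than in HFD CD11c+ ATM (adjusted p = 0.00072, and 1.62 without the pair of arrays that stood apart) and by 1.27 ± 0.29 in ND ATDC than in ND CD11c- ATM (adjusted p = 0.0074), the second lost in 3 of 4 leave-outs. Cxcr6, whose ligand is Cxcl16 and whose gene lies between Ccr9 and Xcr1, was higher by 2.95 ± 0.60 in ND ATDC than in ND CD11c- ATM (adjusted p = 0.003). Ccrl2, an atypical receptor that binds chemerin, was higher by 3.24 ± 0.80 in WL than in ND CD11c- ATM (adjusted p = 0.019), a call that held in 1 of 4 leave-outs. The scavenging receptors Ackr2 and Ackr3, which take up chemokines without G protein signalling, had differences of -2.62 ± 0.43 and -2.68 ± 0.47 in ND CD11c- ATM against ND PA (adjusted p = 9.6e-05 and 0.00021), and Ackr1 and Ackr4 were at least 1.62 and 0.47 lower on the log2 scale.

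Of 25 listed genes of signalling and desensitisation downstream of these receptors, 21 were tested. In ND CD11c- ATM against ND PA 16 were higher (10.8% of all genes) and none lower (12.6%), with a median difference of 2.31, against 0.01 for all genes. Pik3cg, the phosphoinositide kinase driven by G protein subunits, was higher by 4.99 ± 0.39 and Dock2, an activator of Rac in leukocyte movement, by 5.07 ± 0.55 (adjusted p = 3.1e-08 and 8.1e-07). Plcb2, a phospholipase activated by chemokine receptors, was higher in HFD ATDC than in HFD CD11c+ ATM by 1.74 ± 0.34 (adjusted p = 0.0049, and 1.60 without the pair of arrays that stood apart) and in ND ATDC than in ND CD11c- ATM by 2.81 ± 0.42 (adjusted p = 0.00019). Rgs1 and Rgs2, which shorten G protein signals, rose by 2.84 ± 0.53 and 2.91 ± 0.45 in HFD against ND PA (adjusted p = 0.0048 and 0.00089), where 1.69% of all genes rose. In the same comparison 7 of 11 macrophage markers rose, with a median difference of 1.99, and their part in the rise of Rgs1 and Rgs2 was not tested. Arrb1, an arrestin that ends receptor signals, fell by 1.72 ± 0.33 in WL against ND CD11c- ATM (adjusted p = 0.0042) and by 1.36 ± 0.30 against HFD CD11c- ATM (adjusted p = 0.019, difference -1.56 without the pair), the call against HFD lost in 3 of 5 leave-outs.

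The genes whose values were most like each receptor over the 24 arrays are given by Pearson's r, as a description of arrays that share the differences between sorts. Xcr1 was most like Klri1 (r = 0.966), Fcrla (0.962), Cd244a (0.958), Gpr33 (0.951) and Cldn1 (0.947), and Ccr7 like H2-Oa (0.947), Flt3 (0.936), Rab27a (0.934), Cd244a (0.933) and Klri1 (0.932). Klri1 and Cd244a stood in both lists, and after group means were removed their r with Ccr7 was -0.106 and 0.184. Ccr2 was most like the class II genes H2-Eb1 (0.979) and H2-DMa (0.977), with Coro1a, AI662270 and Rassf4 at 0.971 to 0.973, and H2-Eb1 kept an r of 0.942 after group means were removed. The scatter of Ccr2 within groups was mostly that of PA (SD 2.13 in ND PA and 1.01 in HFD PA, against at most 0.38 in other groups). That r therefore rests largely on the PA arrays. Cxcr4 was most like Arhgap9 (0.963), Pirb, Itgam, Lpxn and Cyth4 (0.960), and Ccr1 like Cfp (0.956), Ptafr, Arhgap45, Lyl1 and Nrros (0.944). Cx3cr1 was most like Apoc2 (0.876), Lst1, Tnfrsf11a, Prkch and Dennd2c (0.832), Ccr3 like Armc2 (0.936), Myh15, Pgm5, Fsd2 and Abcb4 (0.863), and Ccr9, with the lowest likeness of the 8, like Clcf1 (0.763), Upb1, Mpzl3, Siglecg and Hltf (0.704).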

How the data were processed

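Expression was measured on 24 single-colour arrays, 1 per sample, of biotin-labelled cDNA amplified with a NuGEN kit, per the labels' protocols. The unit deposited by the authors is a log2 expression value after normalization, in 41345 probe rows. The submitters' processing notes name RMA, oligo and limma without versions or settings. RMA removes shifts shared by all genes of an array, and whether limma altered the deposited log2 values is not stated. Background calls and probe intensities were not used here, so the number of arrays limits the precision, and the array median served as the mark for low values. Rows were named from the platform annotation: 23521 carried 1 symbol, 1814 several, and 16010 were not named here. A gene with several rows (1082 genes) was read from the row with the highest mean.

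Groups came from the array titles. Group means were fitted with limma 3.58.1 in R 4.3.3 in 1 fit of all arrays (15 residual degrees of freedom, lmFit and eBayes, two-sided), with Benjamini-Hochberg adjustment over 15496 genes within each of 12 comparisons and 2 interactions and a threshold of 0.05. Where no array of the lower group was above its median, the least difference sets that group at the higher of the median and its own value. Samples share only a replicate number: deviations of same-numbered arrays correlated from -0.131 to 0.252. Most samples were pools of mice, so p-values measure the spread between pools, and where no pooling is given, between samples.

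The members, gene lists and marker lists were chosen with earlier results of these data known. All 8 members are named, with members of the ligand, receptor and signalling lists past the threshold (at most 6 per list and comparison, not all printed), the members' ligands, and the 5 genes of highest correlation with each member, leaving out genes without a proper name, odorant and pheromone receptors and segments of antigen receptors. The code was tested on simulated data. Alternatives were no filter, only the arrays compared, array weights, a trended robust fit, median centring, quantile normalization, a replicate block, the mean over probe rows, leaving out the pair of arrays that stood apart, and leaving out each array. Promoter sequences are RefSeq's, build GRCm38.p6; no build is stated for the array annotation in the labels. A protein table was not used here.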

Additional observations from a re-analysis of the deposited data

How the results depend on the processing

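Of 12 receptor differences past the threshold, 1 of them that of Ccr3, which had to differ to be tested, the 6 of Ccr7 and Xcr1 between ATDC and ATM and those of Ccr1, Ccr2 and Cxcr4 between ND CD11c- ATM and ND PA held in each leave-out and in each of the 9 other alternatives run. The Ccr3, Ccr9 and Cx3cr1 calls were lost in 4, 2 and 2 leave-outs, and also with only the arrays of the groups compared (adjusted p = 0.13, 0.22 and 0.077). The number of receptors called, Ccr3 included where it passed, ran over the leave-outs from 2 to 3 in HFD ATDC against HFD CD11c+ ATM, 2 to 3 in ND ATDC against ND CD11c- ATM, 3 to 4 in ND CD11c- ATM against ND PA and 7 to 8 in the F test, and was 2 throughout in HFD ATDC against HFD CD11c- ATM. In HFD against ND PA it ran from 0 to 1 (Ccr2, without ND PA replicate 1) and was 1 with array weights (Ccr1, 1.16, adjusted p = 0.042). In WL against HFD CD11c+ ATM it ran from 0 to 1 (Ccr3, without HFD CD11c+ ATM replicate 2). It was 0 in the other comparisons and interactions under all alternatives run. With the replicate block, 3, 2, 3 and 4 receptors were called in the 4 comparisons that had calls, 0 in the rest, and no receptor's call changed (0 of 112 values). No receptor difference past the threshold turned its sign. Of 1510 recomputed values below it, 72 did, the largest main size being 1.04. For the ligands, other receptors and signalling genes, 300 of 372 recomputed calls held over the leave-outs and 616 of 666 over the other alternatives, 25 of the 50 losses coming with only the arrays of the groups compared. Groups of 2 or 3 arrays with an SE of 0.32 to 0.80 limit what could be called, and the smallest receptor difference past the threshold was 1.45.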
